A study of Drosophila melanogaster with 3 samples.

Results

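Weak promoter peaks of the zinc finger protein Zif (CG10267) in Drosophila melanogaster embryos are described here: peaks that lay at gene starts and were called in all 3 ChIP-seq replicates, but that fell outside the authors' final set. They were chosen from a relaxed list of 30000 peaks that the authors called on pooled reads. A peak was a member when it overlapped no interval of the final set, built with the irreproducible discovery rate (IDR), which keeps peaks ranked alike in replicates. In addition its summit, the point of highest signal, had to lie within 500 bp of a transcription start site (TSS) of a protein-coding gene. Lastly it had to overlap by at least 1 bp a peak in the relaxed list of each replicate. Of the 30000 peaks, 18851 lay outside the IDR set and 2268 met the whole rule. The rule used the pooled signal, through the IDR set, and presence in each replicate, so signal levels and replicate presence are given as descriptions without tests.

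All samples formed 1 group. Flies carried a stable transgene that gives Zif a GFP tag at its C-terminal end, and chromatin came from whole embryos of both sexes, pooled, 0 to 24 h old. It was sheared to fragments of 200 to 800 bp and precipitated through the tag with an anti-GFP antibody, in 3 biological replicates. The promoter driving the transgene is not given, the age range spans all of embryogenesis, and many cell types are mixed, so a weak peak in few cells and weak occupancy in many cannot be told apart. No treatment or second genotype was part of the series.

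Zif belongs to the zinc finger proteins with a ZAD domain, a large insect family of DNA-binding proteins. It is known from neuroblasts, the stem cells of the fly nervous system, where it has been linked to the polarity kinase aPKC. Fly promoters fall into broad types: those of housekeeping genes often hold the DRE, bound by DREF, and Motif 1, bound by M1BP. Promoters of developmentally regulated genes more often hold GA repeats, bound by GAGA factor, and paused polymerase.

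Sequences of 8 promoters show what the weak peaks lay on. Each is the 120 bases directly upstream of the TSS nearest to the summit, on dm6, 5′ to 3′ on the gene's strand. Capitals mark any letters of the DRE (TATCGATA), Motif 1 (GGTCACACT), the repeat GAGAGAG (called GAGA letters), Motif 6 core (GTATNTTT), Motif 7 core (CANCNCTA) or TATA box (TATAAA), on either strand. Where matches of the same motif overlap, only the leftmost is in capitals. This holds for the Motif 7 core at Fas2 and the GAGA letters at DopEcR. Windows were considered where they hold the summit and overlap no exon, and not on every chromosome arm; the first 3 belong to the strongest such members. They lie at CG11076 (chr4:1030976-1031095, minus strand), at eIF4G1, a scaffold of translation initiation (chr4:930716-930835, minus strand), and at Fas2, an adhesion molecule of axons (chrX:4206094-4206213, minus strand).
CG11076: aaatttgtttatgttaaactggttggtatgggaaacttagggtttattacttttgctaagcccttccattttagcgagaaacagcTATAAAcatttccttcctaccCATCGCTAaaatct
eIF4G1: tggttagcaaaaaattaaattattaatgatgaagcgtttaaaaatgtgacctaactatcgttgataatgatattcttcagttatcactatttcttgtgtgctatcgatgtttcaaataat
Fas2: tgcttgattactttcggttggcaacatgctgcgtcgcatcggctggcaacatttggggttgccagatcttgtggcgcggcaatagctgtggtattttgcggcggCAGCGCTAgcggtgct
The next pair are the strongest such members with GAGA letters. They are Delta, the ligand of Notch (chr3R:19326218-19326337, minus strand), and DopEcR, a receptor for dopamine and ecdysone (chr3L:4380388-4380507, minus strand).
Delta: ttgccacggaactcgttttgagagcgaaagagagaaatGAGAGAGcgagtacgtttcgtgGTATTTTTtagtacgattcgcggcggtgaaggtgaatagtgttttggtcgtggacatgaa
DopEcR: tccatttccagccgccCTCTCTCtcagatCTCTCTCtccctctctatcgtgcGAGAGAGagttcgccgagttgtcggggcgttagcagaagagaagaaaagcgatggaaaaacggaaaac
The last 3 hold the DRE or Motif 1. CG11122 (chrX:11124727-11124846, minus strand) shares its start region with Rpt3, an ATPase of the proteasome, Spn88Ea is a serpin (chr3R:15206448-15206567, minus strand), and Ubc4 is a ubiquitin-conjugating enzyme (chr3L:9698216-9698335, plus strand).
CG11122: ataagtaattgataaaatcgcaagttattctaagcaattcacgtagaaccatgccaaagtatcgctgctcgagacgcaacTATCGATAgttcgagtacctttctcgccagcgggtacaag
Spn88Ea: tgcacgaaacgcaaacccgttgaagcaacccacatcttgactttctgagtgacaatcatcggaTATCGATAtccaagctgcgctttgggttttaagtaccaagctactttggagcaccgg
Ubc4: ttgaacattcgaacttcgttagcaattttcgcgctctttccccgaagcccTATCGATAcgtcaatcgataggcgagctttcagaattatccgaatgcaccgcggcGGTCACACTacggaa
The 3 strongest held few of these letters: CG11076 and Fas2 had the Motif 7 core, CG11076 also had a TATA box, and eIF4G1 had none of the 6. The Ubc4 window held both the DRE and Motif 1.

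The lists overlap themselves, and this bears on every count. Of the 2268 members, 2153 (94.9%) were 480 bp wide, and neighbouring summits lay as little as 199 bp apart. They formed 1692 runs of overlapping intervals: 1146 of a single member, 517 of 2 members and 29 of 3 or more. A total of 660 members overlapped a stronger peak of the pooled list, and overlapping members often share the same replicate peak and its signal. The 2268 are therefore not as many separate sites.

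The pooled signal, the peak caller's measure of enrichment, ranged over the members from 34.1 to 203.7 with a median of 103.3. At the 4948 IDR peaks that met the same distance rule, called IDR promoter peaks, it ranged from 203.9 to 8172 with a median of 447.6. The strongest member, at Lsm10 (a component of the U7 snRNP) with RpS15Ab also in reach, had 203.7. Just above it, the lowest IDR promoter peaks had 203.9 at rudhira, 204.0 at CG17328 and 204.1 at Capr. The weakest members, at E(spl)mgamma-HLH, ps and ND-B14.5B, had 34.2, 34.2 and 34.1. The one at E(spl)mgamma-HLH overlapped a stronger member of the same gene, with a pooled signal of 129. The deposited −log10 q value was at its highest value of 4.41 for 935 members (41.2%), as for all the IDR promoter peaks. Across the edge of the distance rule, 100 weak peaks with all 3 replicates lay 451 to 500 bp from a TSS and 88 lay 501 to 550 bp away.

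Weak peaks were found in every replicate more often at promoters than elsewhere. Of the 3577 peaks outside the IDR set at protein-coding promoters, 2268 (63.4%, exact 95% binomial interval 61.8 to 65.0) were called in all 3 replicates. Of the 15274 that lay elsewhere, called weak distal peaks from here on when they were in every replicate, 6633 (43.4%, 42.6 to 44.2) were. Intervals cover counting error only, and overlapping peaks make them too narrow. Of the 1309 weak promoter peaks that missed a replicate, 409 had no peak in replicate 1, 734 in replicate 2 and 621 in replicate 3. These peaks were weaker in the pool, with a median of 53.6 against 103.3 for the members, and how much of the difference in presence goes with signal was not tested.

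Replicate values of the strongest members lay well below the usual level of an IDR peak. To set replicates side by side, the signal of the strongest overlapping peak in each replicate was put over the median that the 8630 IDR peaks had there. That median was 202.5, 105.5 and 142.1 in replicates 1, 2 and 3. On this relative scale eIF4G1 had 0.550, 0.513 and 0.400 in replicates 1, 2 and 3. The peak at Rpp25 (a subunit of RNase P), with CG17266 also in reach, had 0.474, 0.498 and 0.464, the smallest spread of the 12 strongest. AcCoAS, which makes acetyl-CoA from acetate, had 0.420, 0.490 and 0.431, and all 3 replicates again lay near each other. Other strong members were less even over the 3 replicates. The peak between CG11122 and Rpt3 had 0.15, 1.02 and 0.649, so it stood at IDR level in replicate 2 and was low in replicate 1. The peak at CG11076, a gene next to ATPsynbeta on chromosome 4, had 0.666, 0.216 and 0.356, and Fas2 had 0.614, 0.285 and 0.457. In both, replicate 1 was the highest and replicate 2 the lowest. The remaining ones of the 12 were at Strn-Mlck (a myosin light chain kinase), CG4806, CG14322, ZnT41F (a zinc transporter) and Dcps (a decapping enzyme), with means of 0.433 to 0.505 over the 3 replicates. Of these Dcps spread most, with 0.481, 0.714 and 0.256, and CG14322 least, with 0.479, 0.530 and 0.507.

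**Figure D1:**
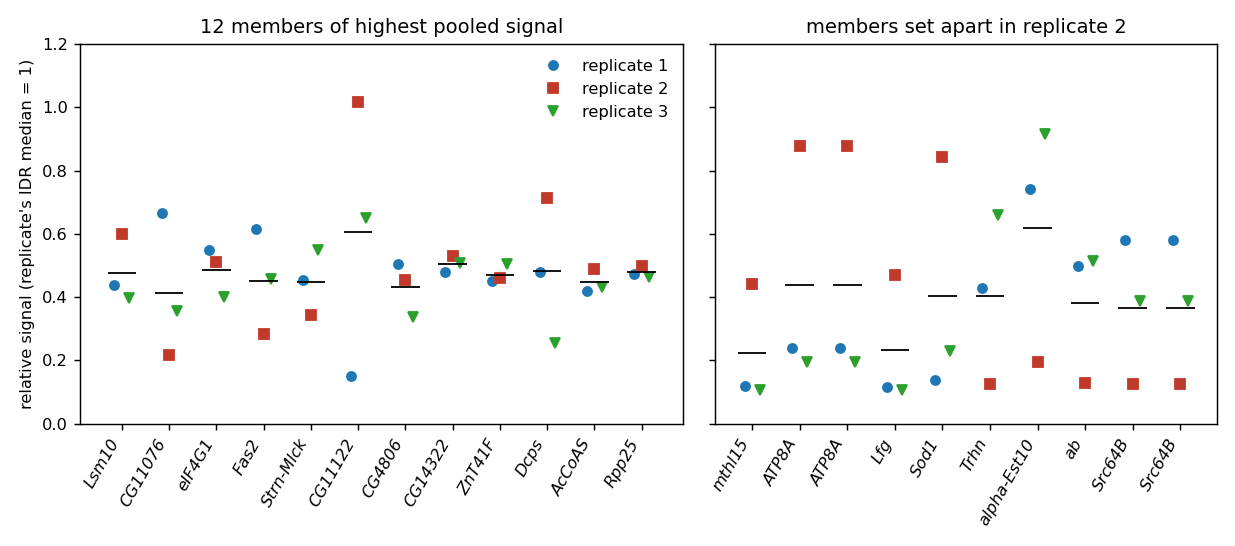
Relative signal (vertical axis, 1 is the median of the IDR peaks in that replicate) of named weak promoter peaks in replicates 1, 2 and 3, with black lines for the mean of the 3. Left, the 12 of highest pooled signal, where CG11122 reached 1.02 in replicate 2; right, the 5 with the highest and the 5 with the lowest replicate 2 value relative to the others, a choice that fixes their spread.

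Over all members the median relative signal was 0.285, 0.321 and 0.292 in replicates 1, 2 and 3 (0.299 ± 0.0190, SD, n = 3), with single values from 0.0926 to 1.64. Weak distal peaks had 0.251, 0.238 and 0.257 (0.249 ± 0.00977). Replicate 2 was the highest of the 3 on this scale for 1105 members (48.7%, 46.6 to 50.8). This was not particular to weak peaks: at the IDR promoter peaks replicate 2 was the highest for 65.1% (63.8 to 66.5), with medians of 1.10, 1.37 and 1.09 in replicates 1, 2 and 3. Of the members, 504 (22.2%) overlapped one of the 8630 strongest peaks of replicate 2, compared with 193 (8.51%) for replicate 1 and 186 (8.20%) for replicate 3. At weak distal peaks these shares were 5.46%, 5.95% and 5.97%, close to each other. Only 15 members (0.661%) were among the strongest peaks of all 3 replicates, and 1530 (67.5%) were among those of none.

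The members with the highest replicate 2 share were at mthl15, ATP8A (a phospholipid flippase, with a pair of overlapping members), Lfg and Sod1, the cytosolic superoxide dismutase. ATP8A had 0.239, 0.878 and 0.194 in replicates 1, 2 and 3, and Sod1 had 0.140, 0.842 and 0.230. Those with the lowest were at Trhn, a tryptophan hydroxylase of the nervous system, alpha-Est10, ab and Src64B, a Src family kinase with a pair of members. Trhn had 0.429, 0.127 and 0.660, and Src64B had 0.582, 0.127 and 0.387. At alpha-Est10 the pooled signal was only 35.4, while the relative signals of the overlapping replicate peaks were 0.743, 0.196 and 0.917, so these need not be peaks of the same summit. The coefficient of variation over the 3 replicates had a median of 31.1% at the members and 28.8% at IDR promoter peaks. Spearman's rho across the 2268 members was 0.319, 0.383 and 0.299 for replicates 1 and 2, 1 and 3, and 2 and 3. At the 4948 IDR promoter peaks it was 0.833, 0.903 and 0.800. The members span a narrow range of signal and share library depth within each replicate, so these values are a description, with no p.

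Weak promoter peaks were more loosely placed around the TSS than IDR promoter peaks. Their summits lay at a median of −71.5 bp (95% interval −79 to −63, negative being upstream), with quartiles at −224 and 27 bp. IDR promoter summits had a median of −84 bp (−88 to −81) with quartiles at −161 and −24 bp. Of the members, 69.1% (67.2 to 71.0) were at or upstream of the TSS, compared with 84.6% (83.5 to 85.6) of the IDR promoter peaks. In addition, 15.8% of the members and 5.03% of the IDR promoter peaks were over 100 bp downstream. The weak promoter peaks that missed a replicate went further in this direction, with 62.5% (59.8 to 65.1) upstream. When each replicate's own list was split at its 8630 strongest peaks, the upstream share was 59.9 ± 2.25% for the weak promoter peaks and 81.1 ± 2.27% for the strong ones (SD, n = 3). It was lower for the weak peaks in 3 of 3 replicates. An exact two-sided sign-flip test over 3 replicates cannot go below 0.25, and that was the p of this and the next such comparisons. The replicate lists are not independent of the choice of members, since all 3 entered the rule.

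**Figure D2:**
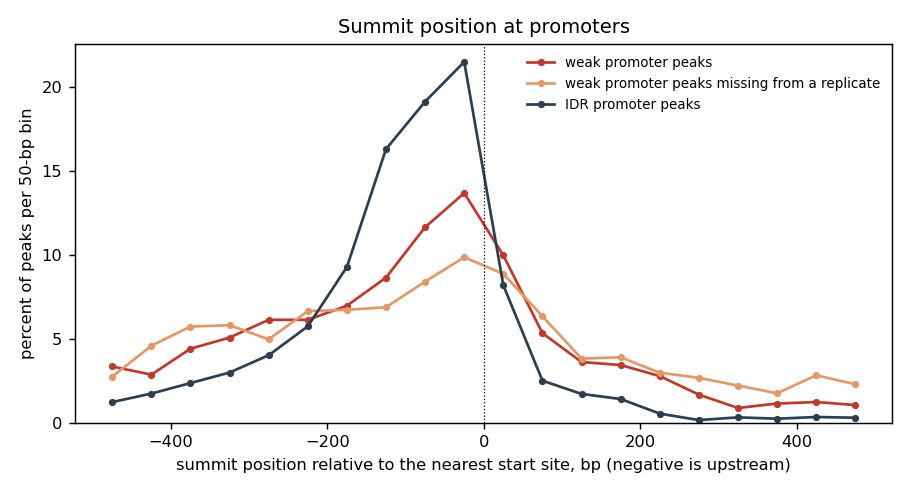
Percent of peaks per 50-bp bin (vertical axis) against summit position relative to the nearest protein-coding TSS in bp (horizontal axis, negative is upstream). Weak promoter peaks have a lower crest just upstream of the TSS and more weight downstream than the IDR promoter peaks, whose upstream share is 84.6%.

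The classes also differed at head-to-head promoters, where 2 genes start back to back in opposite directions. Of the weak promoter peaks 202 (8.91%, 7.77 to 10.2) lay at such a pair, compared with 1871 (37.8%, 36.5 to 39.2) of the IDR promoter peaks. These shares depend on the distance rule: with a limit of 200 bp they were 4.95% of the members and 23.3% of the IDR promoter peaks, and with 1000 bp they were 13.1% and 40.9%. The share was 14.9 ± 1.82% for weak and 38.1 ± 1.67% for strong promoter peaks in the replicates' own lists, lower for the weak ones in 3 of 3 (SD, n = 3, exact sign-flip p = 0.25). Of the 12 strongest members 4 lay at such pairs: Lsm10 with RpS15Ab, CG11076 with ATPsynbeta, CG11122 with Rpt3 and Rpp25 with CG17266. The summits of members fell in intergenic sequence in 39.4% of cases, in introns in 27.7%, in 5′ UTRs in 24.9% and in coding exons in 3.48%. For the IDR promoter peaks these shares were 62.1%, 17.0%, 16.5% and 1.27%.

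Most weak promoter peaks lay at genes without an IDR promoter peak. For 1697 (74.8%, 73.0 to 76.6) no gene within 500 bp had an IDR peak at any of its TSSs, and 629 (27.7%) were the only pooled promoter summit of every gene in reach. Of the other 571, 526 lay where no TSS in reach had an IDR summit within 500 bp, so that the gene's IDR peak was at another TSS, and 45 shared a TSS with an IDR summit. The nearest IDR summit was a median of 3388 bp away (interquartile range 1650 to 7205), and 819 members (36.1%) were over 5000 bp from any. Among 13945 protein-coding genes, 1742 had a weak promoter peak, 1355 of these (9.72% of all genes) without an IDR promoter peak and 387 with one. The 1355, which may hold several members, are called genes with only a weak promoter peak. For comparison, 5723 genes (41%) had an IDR promoter peak, and 6094 (43.7%) had no pooled summit within 500 bp of a TSS. Single genes could hold many: ps, a regulator of splicing and synaptic growth, had 8 members and CG42748, CG5065 and CG9380 had 6 each, none with an IDR promoter peak.

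The gene for aPKC, the polarity kinase tied to Zif in neuroblasts, was among the 387 with both. It had an IDR promoter peak and, at another start region inside an intron, a pair of overlapping members whose summits lay at −210 and −409 bp. The stronger of them had a pooled signal of 151.1 and a relative signal of 0.441, 0.241 and 0.428 in replicates 1, 2 and 3.

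GAGA letters were more frequent at weak promoter peaks than at IDR promoter peaks, at weak distal peaks or at TSSs at large. Within 100 bp of the summit, GAGAGAG or its complement was present in 195 of 2268 members (8.60%, 7.48 to 9.83). It was present in 2.55% of IDR promoter peaks, 4.55% of weak distal peaks and 4.69% of windows at all 19252 protein-coding TSSs. The weak promoter peaks that missed a replicate had 8.02% (6.61 to 9.63), an interval that overlaps that of the members. In the replicates' own lists it was 6.57 ± 0.653% for weak and 2.80 ± 0.0832% for strong promoter peaks, higher for the weak ones in 3 of 3 (SD, n = 3, exact sign-flip p = 0.25). The order was the same within 50 bp of the summit, with 4.50% of the members and 1.01% of the IDR promoter peaks. It was also the same with only the strongest peak of each run of overlapping peaks, with 9.04% of 1692 and 2.35% of 4333. When the window was set at the first TSS of each gene rather than at a summit, the share was 6.57% (5.31 to 8.02) of the 1355 genes with only a weak promoter peak. It was 5.18% (3.72 to 6.98) of the 773 genes with other pooled summits alone, an interval that overlaps the one before. It was 3.29% (2.84 to 3.78) of the genes with an IDR promoter peak and 3.23% (2.80 to 3.71) of those without any summit. The 195 members with GAGA letters had a median pooled signal near that of all members, and 4.10% of them lay at head-to-head promoters. Delta, whose window is printed above, was the strongest of those shown, with signals of 108.2, 39.2 and 79.2 in replicates 1, 2 and 3.

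Compared with IDR promoter peaks, the DRE and Motif 1 went the other way, though both were more frequent than at weak distal peaks. Both were also less frequent than in TSS windows, but those are centred on the TSS and not on a summit. The DRE was present in 4.50% (3.68 to 5.43) of the members, 12.2% of IDR promoter peaks, 0.874% of weak distal peaks and 6.45% of TSS windows. Motif 1 was present in 2.34% (1.76 to 3.05) of the members, 7.52% of IDR promoter peaks, 0.211% of weak distal peaks and 4.42% of TSS windows. The weak promoter peaks that missed a replicate had the DRE in 2.67% (1.87 to 3.70) and Motif 1 in 1.60% (0.996 to 2.44). The Motif 7 core had shares of 7.72% in the members and 16.5% in IDR promoter peaks, and CGATA, the core letters of BEAF-32 sites that also lie within the DRE, 31.3% and 46.4%. For the DRE, the replicates' own lists gave 3.87 ± 0.892% for weak and 11.7 ± 0.677% for strong promoter peaks, lower for the weak ones in 3 of 3 (SD, n = 3, exact sign-flip p = 0.25). With the window at the first TSS of each gene, 8.04% (6.65 to 9.62) of genes with only a weak promoter peak had the DRE. The share was 14.8% of genes with an IDR promoter peak, 4.14% of those with other pooled summits alone and 1.77% of those without any summit. For Motif 1 these shares were 5.09% (3.98 to 6.40), 10.3%, 2.59% and 1.00% in the same order. For genes with only a weak promoter peak, neither share was thus below that of all TSS windows. Around summits, the TATA box was present in 28.3% of the members and 35.9% of IDR promoter peaks, and the initiator letters TCAGT in 33.6% and 31.6%. At the first TSS, the TATA box was in 22.7% (20.5 to 25.1) of genes with only a weak promoter peak. It was in 24.8% (23.7 to 25.9) of genes with an IDR promoter peak, an interval that overlaps the one before. The initiator letters were there in 44.2% (41.5 to 46.9) and 34.7% of these genes.

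Letters of insulator and early embryo factors were rare in every class. CTCF core letters (AGNTGGCGC) were in 1.24% of members and 1.33% of IDR promoter peaks, Su(Hw) core letters (GCATACTT) in 1.24% and 0.930%, and Pho core letters (GCCATTTT) in 1.37% and 2.08%. Letters of Zelda (CAGGTAG), the pioneer factor of early zygotic transcription, were in 0.794% and 0.667%. Of the remaining letters, the Motif 6 core was in 11.2% and 13.5%, and CAGCTG, an E-box, in 12.6% and 13.9%. GC content within 100 bp of the summit had a median of 39.3% at the members, 34.8% at IDR promoter peaks, 36.3% at weak distal peaks and 42.3% at all TSSs. The classes thus differed in base composition too, and its part in the letter shares was not tested. A match describes the letters in a window and does not show a bound site.

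**Figure D3:**
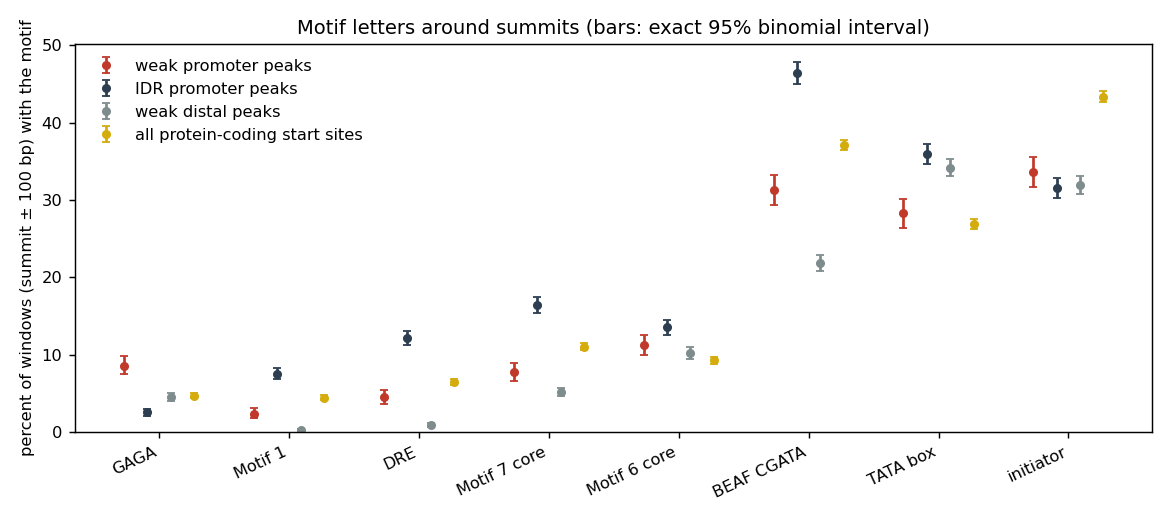
Percent of windows reaching 100 bp to each side of the summit (vertical axis) with each motif's letters, for weak promoter peaks, IDR promoter peaks, weak distal peaks and all protein-coding TSSs; bars are exact 95% binomial intervals. GAGA is highest at the weak promoter peaks (8.60%), while Motif 1, the DRE, the Motif 7 core and CGATA are higher at the IDR promoter peaks.

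Within the members several of these properties moved with signal. In 4 equal groups of 567 members by pooled signal, from the weakest to the strongest, the DRE share was 1.41%, 2.47%, 5.82% and 8.29%, next to 12.2% in the IDR promoter peaks. The Motif 1 share was 0.529%, 1.41%, 2.65% and 4.76%. The upstream share was 62.3%, 64.4%, 72.5% and 77.4%, and the head-to-head share was 5.82%, 6.53%, 7.94% and 15.3%. GAGA letters were in 9.0%, 8.82%, 10.1% and 6.53% of the groups, all above the 2.55% of the IDR promoter peaks and with overlapping intervals among themselves. DRE holders had a median pooled signal of 145.1, compared with 96.4 for the 1582 members with none of the DRE, Motif 1, GAGA, Motif 6 or Motif 7 letters.

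**Figure D4:**
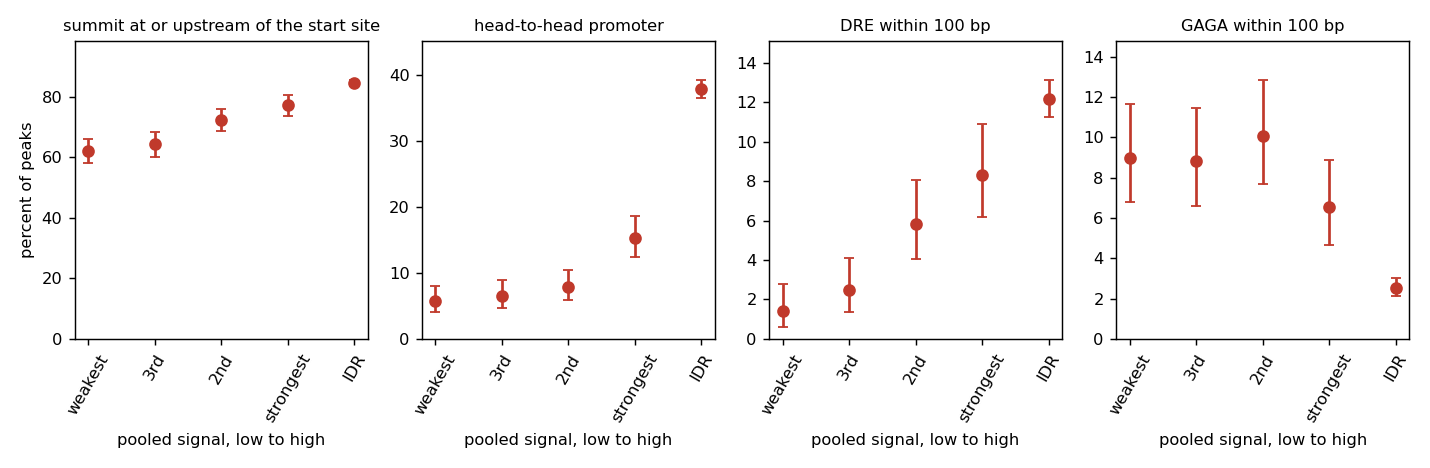
Percent of peaks (vertical axes, each from 0) with a summit at or upstream of the TSS, at a head-to-head promoter, with the DRE and with GAGA letters, for the 4 groups of 567 weak promoter peaks by pooled signal, low to high, and for the IDR promoter peaks at the right. Bars are exact 95% binomial intervals; the DRE share is 1.41% in the weakest and 8.29% in the strongest group.

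By chromosome, genes with only a weak promoter peak were most frequent on chromosome 4, the small, largely heterochromatic chromosome bound by POF. They made up 27 of its 80 protein-coding genes (33.8%, 23.6 to 45.2), 292 of 2196 on X (13.3%, 11.9 to 14.8) and 1036 of 11669 on chromosomes 2 and 3 (8.88%, 8.37 to 9.41). The share of genes with an IDR promoter peak differed less, with 37.5% on 4, 42.9% on X and 40.7% on 2 and 3. Genes without any summit were fewer on 4 (15.0%) and X (37.1%) than on 2 and 3 (45.2%). In the replicates' own lists, genes with only weak promoter peaks were 46.3%, 51.3% and 52.5% on 4, 21.8%, 17.2% and 23.8% on X and 16.0%, 14.0% and 17.3% on 2 and 3, so the order was the same in 3 of 3. With only members at the highest −log10 q, fewer genes were in this class everywhere, and the order was again the same, with 26.2% on 4, 8.20% on X and 5.13% on 2 and 3.

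The 47 members on chromosome 4 had a median pooled signal of 123.8, against 103.2 for the 1720 on chromosomes 2 and 3. Apart from CG11076 and eIF4G1 they included Arf4, MED26 (a Mediator subunit), Eph (a receptor tyrosine kinase of axon guidance), toy (a Pax6 homologue) and zfh2. These were picked after their values were seen. MED26 had relative signals of 0.663, 0.209 and 0.355 in replicates 1, 2 and 3 at its strongest member, highest in replicate 1. The strongest at Eph had 0.460, 0.432 and 0.328, with replicates 1 and 2 alike.

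The 20 gene lists, 999 genes in all, are set beside the 9.72% of all protein-coding genes with only a weak promoter peak. Of 28 segmentation genes, 7 (25%, 10.7 to 44.9) had only a weak promoter peak: ems, hh, nub, odd, prd, run and slp1. Another 5 had an IDR promoter peak. In the replicates' own lists 50% ± 3.57 of the segmentation genes had only weak promoter peaks, against 16.8 ± 1.92% of all genes (SD, n = 3). At hh, the Hedgehog ligand, the relative signals were 0.286, 0.139 and 0.376. At odd, a pair-rule zinc finger gene, they were 0.227, 0.209 and 0.281, and at slp1, a forkhead gene of segment patterning, 0.257, 0.153 and 0.253. These 3 genes and prd were lowest in replicate 2, while ems and run were highest there and nub was lowest in replicate 1. Of 8 Hox genes, abd-A and pb were in this class, both weak, with pooled signals of 77.6 and 64.4 at their strongest members. At abd-A the relative signals were 0.127, 0.169 and 0.141.

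Of 24 neuroblast factors, 6 (25%, 9.77 to 46.7) had only a weak promoter peak: dpn, esg, l(1)sc, l(2)gl, pdm2 and sna. The remainder comprised 11 with an IDR promoter peak, 2 with another pooled summit and 5 without any. The strongest member of the list was at pdm2, a POU factor of neuroblast timing, with relative signals of 0.371, 0.30 and 0.315. At sna, the Snail repressor, they were 0.239, 0.176 and 0.253, and at dpn, a bHLH factor that marks neuroblasts, 0.237, 0.508 and 0.271. For dpn replicate 2 was the highest, for sna the lowest.

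Signalling lists were mixed. In the receptor tyrosine kinase pathway 6 of 27 genes (22.2%, 8.62 to 42.3) had only a weak promoter peak: the FGF ligand bnl, the receptor tor, Pi3K92E, the adaptor drk, the kinase rl and the antagonist sty. The member counted for tor lay nearer to a TSS of CG1941, its head-to-head neighbour. At bnl the relative signals were 0.549, 0.478 and 0.319. The Dpp pathway had 3 of 17 (Mad, sog and wit) and the Notch pathway 2 of 19, namely Delta and E(spl)mgamma-HLH. The Wnt and Hedgehog pathways had 0 of 25 (an upper limit of 13.7%), and 22 of these had an IDR promoter peak, though members lay at other start regions of pan and arm. At Delta the relative signals were 0.535, 0.372 and 0.557, close to those of the strongest members.

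Among housekeeping and chromatin lists, RNA polymerase and Mediator had 12 of 70 genes (17.1%, 9.18 to 28.0) with only a weak promoter peak. MED26, MED1 and MED20 were the strongest. MED1 had relative signals of 0.520, 0.539 and 0.218 in replicates 1, 2 and 3. Mitochondrial ribosomal proteins had 6 of 73 (8.22%) and cytosolic ones 5 of 93 (5.38%), where 90.3% had an IDR promoter peak. The 5 were RpL21, RpL40, RpS10a, RpS15Ab and RpS5b, and RpS10a, RpS15Ab and RpS5b each have a paralogue in the genome. Proteasome subunits had 2 of 48, Rpt3 and the testis paralogue Prosbeta2R2. Polycomb and Trithorax groups had 3 of 32, with Psc and Sce, both subunits of Polycomb complex 1, and Set1. Cell cycle and replication genes had 3 of 40: CycE, the G1 cyclin, stg, the Cdc25 phosphatase, and Mcm3. At stg the relative signals were 0.410, 0.407 and 0.507, while CycE had 0.347, 0.876 and 0.379 at its strongest member and was high in replicate 2 alone. Insulator and architectural proteins had 2 of 21, Nipped-B and vtd, a loader and a subunit of cohesin, and Rab GTPases 4 of 36.

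Most genes of the chemoreceptor, cuticle and P450 lists had no pooled summit within 500 bp of a TSS, compared with 43.7% of all genes. In the replicates' own lists, genes with only weak promoter peaks made up 16.5 ± 4.24% of the P450 list and 16.8 ± 1.92% of all genes (SD, n = 3). They made up 5.2 ± 1.2% of the chemoreceptors and 6.89 ± 3.13% of the cuticle proteins. Of 180 chemoreceptors 1 (Ir67c) had only a weak promoter peak and 92.8% had no pooled summit near a TSS. Cuticle proteins had 3 of 121, with 90.9% lacking a summit, and the cytochrome P450 list 5 of 85, with 78.8% lacking one. Among these 5 is Cyp1, which is a cyclophilin and not a P450, so the values of this list are not those of P450s alone. Ion channel and synapse genes had 4 of 30 (Shab, Shaw, slo and unc-13), with 53.3% lacking a summit, and muscle genes 3 of 24 (Tm2, Zasp52 and bt), with 33.3% lacking one. The lists are small and were chosen with results of these data known, so nothing is read from their order.

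**Figure D5:**
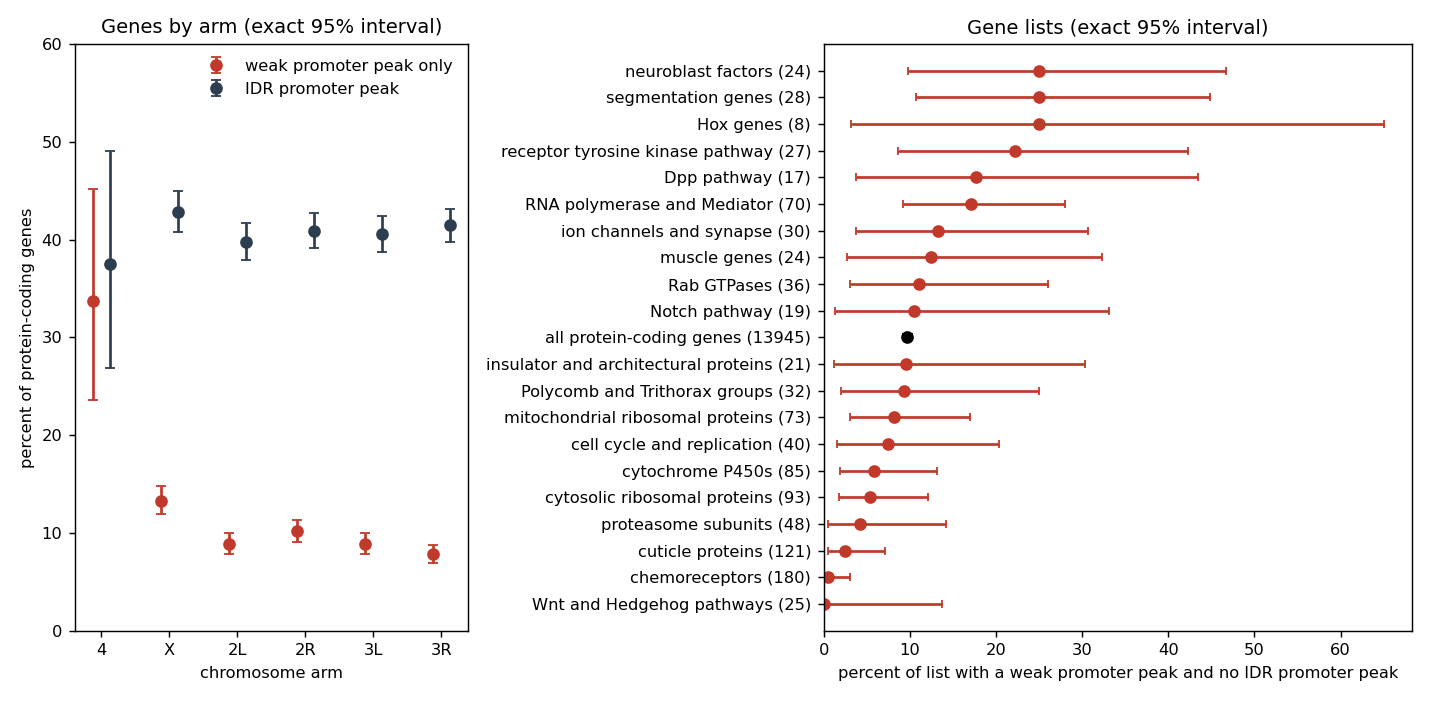
Left, percent of protein-coding genes on each chromosome arm with only a weak promoter peak and with an IDR promoter peak. Right, percent of each gene list (number of genes in brackets) with only a weak promoter peak, with all protein-coding genes in black; bars are exact 95% binomial intervals in both, and the share is 33.8% on chromosome 4 and 9.72% over all genes.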

How the data were processed

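Peak lists of 3 biological replicates of 1 group were used, with a pooled relaxed list and the IDR set. Each replicate has a relaxed list, called against a control library per the labels; the control was not analysed here. Per the file listings deposited with the samples, the pooled list and the IDR set came from replicates 2 and 3. At the 986 members that overlap no other pooled peak, pooled signal was divided by the summed signals of replicates 1, 2 and 3. The median was 0.938 (quartiles 0.838 and 1.00), compared with 1.63 when replicate 1 was left out of the sum. Members were chosen to have a peak in replicate 1, and signals of separate lists need not add up. These values thus cannot tell which replicates entered the pool. No replicate was therefore taken as independent. Aligner, caller, versions and IDR threshold: not given in the sources used here. For each peak the deposited signal value was taken as enrichment over the control, and lists are not on a common scale. From the deposited −log10 q value, only its maximum was used. Summit positions, start plus the deposited offset, are on dm6 and printed 1-based. Without read counts the depth of each replicate is unknown, and intervals cover counting error only.

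Peaks were placed on every TSS of protein-coding genes in Ensembl release 115 on the main chromosome arms, transposable elements left out. Sequence came from the RefSeq assembly of dm6. A gene was counted as having only a weak promoter peak when it had a member but no IDR summit in reach of any TSS (500 bp). Replicate signal was that of the strongest overlapping peak. In the replicates' own lists, peaks beyond the 8630 strongest were called weak, without the other rules. Letters of 13 motifs were searched on both strands; CGATA lies within the DRE. Medians, shares and exact (Clopper-Pearson, 95%) intervals were computed with python 3.11.15, numpy 2.4.6, pandas 2.3.3 and scipy 1.17.1, after checks on simulated data. No test across peaks was made, since peaks are not replicates and there is 1 group.

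The members and the gene lists were chosen with earlier results of these data known. Named genes were the 12 members of highest and the 3 of lowest pooled signal, up to 3 of the strongest per list, the 5 with the highest and 5 with the lowest replicate 2 signal relative to replicates 1 and 3, and the 3 lowest IDR promoter peaks. Other list members were named with their values already known. Of the list symbols, 8 were matched under another spelling, 4 of them by hand. Whether biological replicates came from separate collections of embryos is not stated, so the SD over 3 may be partly technical.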

Additional observations from a re-analysis of the deposited data

How the results depend on the processing

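Of 304 values recomputed under 11 alternatives for 29 results, 218 stayed within 1.5 times (counts) or within the interval or SD, 86 moved and 0 changed sign. Keeping 1 line per interval changed nothing, because no 2 members share an interval. With a TSS limit of 1000 bp, the values were 63.3% upstream, 13.1% head-to-head, 60.4% at genes without an IDR promoter peak, Motif 1 1.75%, CGATA 29.1%, CAGCTG 11.2%, TATA box 30.6%, GC 38.3%, relative signal 0.276 and 0.296 in replicates 1 and 2, and 3150 bp to the nearest IDR summit. With 200 bp there were 1435 members at a median of −33 bp, 65.1% upstream, 4.95% head-to-head and 86.0% without an IDR gene. Their shares were Motif 1 3.48%, DRE 6.41%, CGATA 36.5%, Motif 7 8.92%, CAGCTG 15.4%, TATA box 24.5%, initiator 36.7%, GAGA 10.2% and GC 41.8%. Relative signal in replicate 2 was 0.348, 121 and 114 members were among the strongest peaks of replicates 1 and 3, and X had 10.8%. With the first TSS alone, head-to-head was 11.4%, and 97.8% of the members lay at genes without an IDR peak. Motif 1 had 3.05%, DRE 5.79%, CGATA 33.5% and GAGA 6.85%, and GC was 38.3%. Relative signal was 0.297 and 0.344 in replicates 1 and 2, and 119 members were among the strongest of replicate 3. With 50% of the member covered, relative signals were 0.30, 0.333 and 0.302.

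At the highest −log10 q there were 935 members at 800 genes, 76.7% upstream, 13.2% head-to-head and 78.1% without an IDR gene, with Motif 1 3.96%, DRE 7.70%, CGATA 37.6%, Motif 6 13.3%, CAGCTG 14.0%, TATA box 31.0%, Zelda 0.428%, GC 37.3%, relative signals of 0.364, 0.416 and 0.353, 3174 bp to the nearest IDR summit and 8.20% on X; this keeps stronger members by construction. Windows within 50 bp of the summit, shorter by construction, gave Motif 1 1.54%, DRE 3.13%, CGATA 18.9%, Motif 6 5.51%, Motif 7 4.37%, CAGCTG 6.17%, TATA box 15.2%, initiator 18.7%, GAGA 4.50%, Zelda 0.265%, Su(Hw) 0.617% and Pho 0.397%. With the strongest member of each run alone, an alternative chosen after seeing the data, 72.6% were upstream, Motif 1 had 3.07% and relative signal was 0.310 and 0.281 in replicates 2 and 3. Without 1 replicate at a time, relative signals were 0.270 to 0.275, 0.286 to 0.312 and 0.265 to 0.282 in replicates 1, 2 and 3, and X had 14.2% to 15.2%. Apart from the alternatives' own construction, the cause of these moves was not tested. No paired analysis was possible because the samples form 1 group. Depth is unknown, so nothing follows from the absence of a peak.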

Other observations

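Motif letters within the members went with different layouts. The 102 members with the DRE lay at head-to-head promoters in 20.6% of cases and at genes without an IDR promoter peak in 91.2%. For the 195 members with GAGA letters these shares were 4.10% and 66.2%, and 32.3% of them, compared with 7.84% of the DRE holders, lay at a gene whose IDR promoter peaks were at other TSSs alone. The 53 members with Motif 1 had 17.0% and 84.9%. In all, 3 members held both GAGA letters and the DRE, none held GAGA letters and Motif 1, and 7 held the DRE and Motif 1.

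Relative signal in replicate 2, which was also the highest of the 3 at IDR promoter peaks (median 1.37, compared with 1.10 and 1.09 in replicates 1 and 3), differed between members by their letters. Members with the DRE had median relative signals of 0.337, 0.452 and 0.297 in replicates 1, 2 and 3, and those with Motif 1 had 0.295, 0.489 and 0.297. Members with GAGA letters had 0.283, 0.313 and 0.272, close to the members with none of the 5 main motifs, at 0.283, 0.309 and 0.29. These values were looked at after the data were seen, and their difference was not tested. On X 35 of the 102 DRE members were found, and 41 of the 195 with GAGA letters, beside 501 of all 2268 members (22.1%).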
